A study of Homo sapiens with 8 samples.

Results

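KYNU encodes kynureninase, an enzyme that breaks down kynurenine made from tryptophan. It was examined here with 9 genes of the same pathway and of the aryl hydrocarbon receptor (AHR), which kynurenine can activate. The 10 genes (KYNU, IDO1, TDO2, KMO, AHR, ARNT, AHRR, CYP1A1, CYP1B1 and TIPARP) were matched by symbol and were all found among the 28265 genes counted. KYNU itself was chosen by its nascent RNA, which was higher with ICM and lower in MetaICM, so its values are given as a description and were not tested. The other 9 were chosen as enzymes of the pathway or as parts and targets of the receptor.

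The data are factory RNA-Seq libraries, made from RNA still attached to the cell's transcription factories, of IMR90, a human fetal lung fibroblast line. The paper treats factory RNA as nascent RNA and read it from introns, whereas only counts on exons were used here. The labels name poly(A) RNA, so these counts may include processed RNA. In this text, nascent RNA means factory RNA counted on exons. Control cells carry the label young and are low-passage wild type. ICM (inflachromene, a small molecule that binds the chromatin proteins HMGB1 and HMGB2) was given for 3 days or for 6 days. The last condition, MetaICM, is described by the submitters only as low-passage cells treated with metaICM, without saying what metaICM is. Each of the 4 conditions had 2 libraries. Whether these came from separate cultures is not stated, so p-values measure the spread between libraries, which may be technical.

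The 8 libraries held 12095123 to 23166405 counted read pairs. Replicates correlated over genes at r = 0.984 in control, the lowest, and at r = 0.993 in MetaICM, the highest. All 8 fibroblast markers examined, among them COL1A1 and VIM, exceeded 1 CPM (CPM are counts scaled to a common library depth) in every condition. Their summed level was 53219 to 59244 CPM in control, 26056 to 26875 after 3 days of ICM, 20296 to 20539 after 6 days and 33318 to 36350 in MetaICM. The 6 leukocyte markers were also summed, since macrophages express KYNU. Their sum was 8.03 to 8.32 CPM in control, 21.0 to 24.5 and 20.03 to 24.0 after 3 and 6 days of ICM, and 16.7 to 17.2 in MetaICM. Most of it was CD68, a lysosomal protein also made outside macrophages, at means of 4.79, 18.2, 18.1 and 12.9 CPM in that order. AIF1 was at 0 counts in control, after 3 days and in MetaICM, and LYZ did not exceed a mean of 0.107 CPM. In the same order, PTPRC had means of 0.410, 0.760, 1.12 and 0.235 CPM. CSF1R had 2.43, 2.62, 2.19 and 2.52 CPM, and CD14 had 0.468, 1.11, 0.456 and 1.24 CPM. The 3 hepatocyte markers, examined because TDO2 is a liver enzyme, summed to at most 0.322 CPM. The part of these marker shifts in the values of KYNU and the other 9 genes was not tested.

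In the kynurenine pathway, IDO1 or TDO2 opens the ring of tryptophan, and the product is converted to kynurenine. KMO hydroxylates kynurenine, and KYNU cleaves kynurenine and its hydroxylated form on the way to NAD. Kynurenine and several of its products bind AHR, a transcription factor of the bHLH-PAS family that waits in the cytoplasm with HSP90. Bound by a ligand, AHR enters the nucleus, pairs with ARNT and binds DNA at a short core motif, GCGTG. CYP1A1 and CYP1B1, which oxidise foreign compounds and steroids, are its best known targets. TIPARP and AHRR are also targets, and each of their products restrains the receptor.

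The bases just upstream of a gene are where such a motif could be read next to the values that follow. The sequences of KYNU and AHR are shown because both genes had more nascent RNA with ICM, and those of TIPARP and CYP1A1 because these known receptor targets differed in their levels. Each is the 250 bases before the RefSeq start of the gene, 5′ to 3′ along the gene, from GRCh38.p14, a later build than the hg19 of the counts. For genes with several starts in the table, the most upstream one was taken. The windows are chr2:142877414-142877663 on the plus strand for KYNU, chr7:17298402-17298651 on the plus strand for AHR, chr3:156674340-156674589 on the plus strand for TIPARP and chr15:74725529-74725778 on the minus strand for CYP1A1. Capitals mark GCGTG on either strand, so that CACGC is the motif read on the other strand.
KYNU: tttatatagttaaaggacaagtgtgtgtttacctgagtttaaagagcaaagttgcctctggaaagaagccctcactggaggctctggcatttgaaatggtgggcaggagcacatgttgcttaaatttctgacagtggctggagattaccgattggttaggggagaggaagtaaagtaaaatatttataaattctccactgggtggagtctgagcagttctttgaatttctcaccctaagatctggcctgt
AHR: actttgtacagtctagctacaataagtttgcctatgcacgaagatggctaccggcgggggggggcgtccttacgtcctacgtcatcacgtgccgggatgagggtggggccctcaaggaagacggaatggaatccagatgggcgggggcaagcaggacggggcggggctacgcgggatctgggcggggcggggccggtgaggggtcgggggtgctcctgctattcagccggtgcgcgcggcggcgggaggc
TIPARP: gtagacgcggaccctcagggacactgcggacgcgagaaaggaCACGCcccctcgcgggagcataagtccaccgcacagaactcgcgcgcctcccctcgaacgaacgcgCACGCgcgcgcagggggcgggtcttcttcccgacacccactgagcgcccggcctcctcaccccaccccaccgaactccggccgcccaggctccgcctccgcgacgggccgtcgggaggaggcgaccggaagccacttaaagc
CYP1A1: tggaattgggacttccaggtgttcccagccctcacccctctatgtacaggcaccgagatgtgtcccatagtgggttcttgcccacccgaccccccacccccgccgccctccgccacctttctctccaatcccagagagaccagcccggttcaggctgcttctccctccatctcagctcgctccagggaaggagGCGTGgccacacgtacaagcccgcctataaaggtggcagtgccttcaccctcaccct

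One copy of GCGTG began 57 bases before the CYP1A1 start. TIPARP had 2 copies, at 208 and 142 bases before its start. AHRR, whose sequence is not shown, had 1 copy, at 30 bases before the start used. Its window begins at 321464 in GRCh38.p14, whereas the counted AHRR gene begins at 304291 in hg19, so it may not lie upstream of the whole gene. The windows of KYNU, AHR, TDO2, KMO and ARNT held none, which says only that these letters are not in those 250 bases. No window was read for IDO1 or CYP1B1. Of 35116 RefSeq promoter windows in all, 32.2% held GCGTG on either strand. A match is not a binding site.

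Nascent RNA from KYNU was low in control, high after 3 days of ICM, higher after 6 days and lowest in MetaICM. The gene lies on chromosome 2 of hg19 from 143635233 to 143813402, plus strand. Its 16021 exon bases received 420 and 200 read pairs in control, 4117 and 3224 at 3 days, 5247 and 5678 at 6 days, and 206 and 212 in MetaICM. Scaled to depth with TMM factors, this was 25.0 and 16.6 CPM in control, 189 and 217 CPM after 3 days, 282 and 302 CPM after 6 days, and 10.2 and 9.20 CPM in MetaICM. No library of any condition overlapped those of another. In these bulk libraries, fewer cells of a type and less RNA per cell cannot be told apart. The scaled levels of KYNU and of every other gene are relative to the rest of the RNA in a library. A change in all nascent RNA per cell is not seen in them. The paper reports a drop in labelled nascent RNA in the nuclei of ICM-treated cells. Rises and falls in this text are therefore relative, and output per cell was not tested.

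The log2FC of KYNU, the log2 ratio of 2 conditions, was 3.28 ± 0.18 (SE, n = 2 libraries each) for 3 days of ICM over control and 3.80 ± 0.18 for 6 days. These were the 43rd highest of 15692 genes and the 40th highest of 15950. MetaICM lay 30.1-fold below 6 days of ICM (log2FC −4.91 ± 0.09) and 20.9-fold below 3 days (−4.39 ± 0.11), the 22nd lowest of 16036 and the 33rd lowest of 16209 genes. Against control, MetaICM was 2.16-fold lower (−1.11 ± 0.20), at rank 647 from the lowest of 15904. With each library left out in turn, the KYNU difference from control stayed between 3.00 and 3.62 at 3 days, between 3.55 and 4.13 at 6 days, and between −1.37 and −0.77 in MetaICM.

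**Figure D1:**
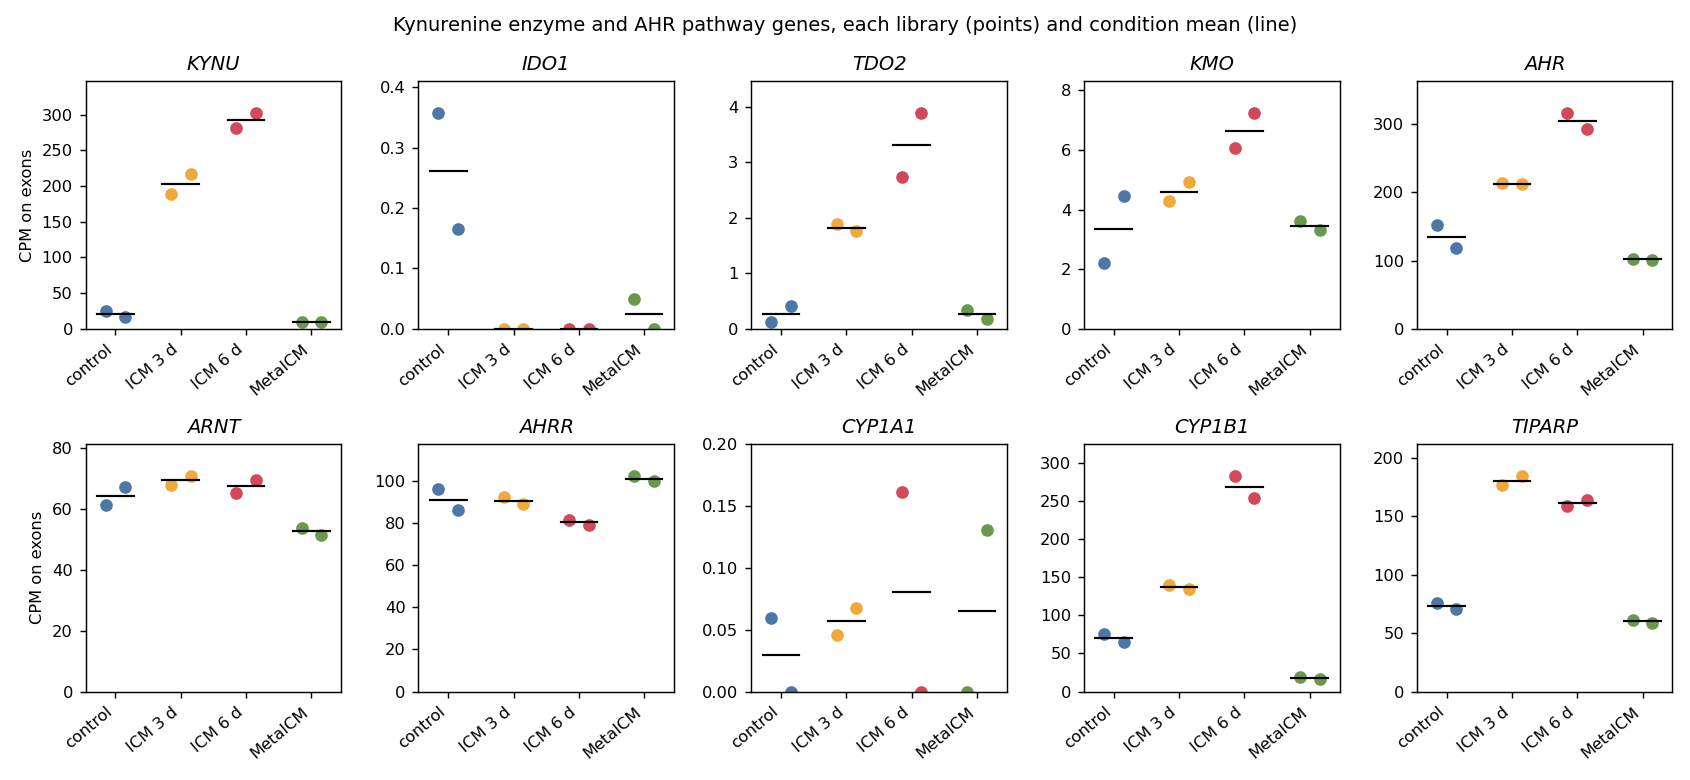
Nascent RNA of the 10 genes on exons, in CPM, on separate linear axes starting at 0. Points are single libraries and lines the mean of the 2 libraries of a condition. KYNU, AHR and CYP1B1 are highest after 6 days of ICM, with means of 292, 304 and 269 CPM, while TIPARP is highest after 3 days at 181 CPM and AHRR stays between 79.2 and 102 CPM.

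The enzymes upstream of KYNU gave far fewer reads. IDO1, the interferon-inducible enzyme of the first step, lies on chromosome 8 from 39771410 to 39786309. It received 6 and 2 counts in control, none in the 4 ICM libraries, and 1 and 0 in MetaICM. Its summed level in control was 3.38-fold that of a floor of 3 counts over the 3-day condition, and 3.46-fold for 6 days. The counting error of the 8 control counts is not in these 2 ratios, so they are not lower limits. For MetaICM, with 1 count, the level was 12.0-fold lower than in control, with an exact 95% interval from 1.605 to 531. That interval covers counting error only, and IDO1 did not pass the filter on low counts in any comparison.

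TDO2, the other first-step enzyme, mostly known from liver, was read from a few counts outside the ICM libraries. Its 1700 exon bases, on chromosome 4 from 156824848 to 156841558, received 2 and 5 counts in control, 41 and 26 after 3 days, 51 and 73 after 6 days, and 7 and 4 in MetaICM. All ICM libraries lay above all others. TDO2 passed the filter on low counts through the ICM libraries alone and so had to differ, and its differences from control and MetaICM are given with no test. The log2FC over control was 2.86 ± 0.56 at 3 days and 3.72 ± 0.51 at 6 days. The size rests on the control counts. Without control replicate 1 it was 2.12 and 2.97, and without control replicate 2 it was 3.84 and 4.72, at 3 and 6 days.

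In MetaICM, the log2FC of TDO2 was −3.67 ± 0.40 against 6 days of ICM and −2.80 ± 0.45 against 3 days. MetaICM and control were not compared, since TDO2 had too few counts in both. From 3 to 6 days, where every library had at least 26 counts, TDO2 rose by 0.85 ± 0.29 (adjusted p = 0.0433, by the quasi-likelihood test of edgeR, with p adjusted over all genes by the Benjamini-Hochberg method). This rise did not pass the adjusted p under DESeq2, with library totals, or with all 8 libraries in one fit, where adjusted p reached 0.157. It was also lost without either 3-day library or without 6-day replicate 2, where the log2FC fell to 0.58.

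KMO, the hydroxylase that competes with KYNU for kynurenine, rose by 6 days. It lies on chromosome 1 from 241695678 to 241758944. Its level was 2.20 and 4.47 CPM in control, 4.28 and 4.92 CPM after 3 days, 6.07 and 7.23 CPM after 6 days, and 3.61 and 3.30 CPM in MetaICM. The 6-day libraries lay above all others, the 3-day libraries overlapped control, and the MetaICM libraries lay between both control libraries. The log2FC was 0.49 ± 0.33 at 3 days (adjusted p = 0.291, edgeR) and 1.03 ± 0.31 at 6 days (adjusted p = 0.0199). That 6-day call was lost without control replicate 1, at 0.56, and without 6-day replicate 2, at 0.90. Without control replicate 2, the 3-day log2FC became 1.03 and passed.

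KMO was lower in MetaICM than after 6 days of ICM by −0.94 ± 0.19 (adjusted p = 0.000240, edgeR). Against 3 days, MetaICM differed by −0.40 ± 0.21 (adjusted p = 0.149). Of the 5017 exon bases of KMO, 1568 are shared with exons of OPN3 on the opposite strand. No strand option was set in the counting, so reads there cannot be assigned to 1 of them by strand.

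AHR, the receptor, rose in scaled level at both times of ICM and lay lowest in MetaICM. It lies on chromosome 7 from 17338276 to 17385771. Its level was 151 and 118 CPM in control, 214 and 212 CPM after 3 days, 316 and 293 CPM after 6 days, and 103 and 100.2 CPM in MetaICM. The 4 conditions did not overlap. The log2FC over control was 0.65 ± 0.14 at 3 days (adjusted p = 0.00388, edgeR) and 1.17 ± 0.13 at 6 days (adjusted p = 6.53e-05). The 3-day value was 0.47 without control replicate 2, under the cutoff of 0.6 on log2FC used for every call.

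From 3 to 6 days the AHR log2FC was 0.51 ± 0.09 (adjusted p = 0.000332, edgeR), and MetaICM against control gave −0.41 ± 0.13 (adjusted p = 0.0365). Both passed the adjusted p and not the size cutoff. AHR fell by 1.58 on the log2 scale from 6 days of ICM to MetaICM (SE 0.07, adjusted p = 1.35e-13, edgeR), and MetaICM lay below 3 days by −1.06 ± 0.08 (adjusted p = 8.79e-08).

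ARNT, the partner that AHR needs on DNA, passed the cutoffs in none of the 6 comparisons. The gene is on chromosome 1, minus strand, from 150782190 to 150849075. Its level was 61.4 and 67.3 CPM in control, 68.1 and 70.9 CPM after 3 days, 65.5 and 69.6 CPM after 6 days, and 53.9 and 51.7 CPM in MetaICM. MetaICM lay below the other conditions, and the 6-day libraries overlapped both control and the 3-day libraries. The log2FC over control was 0.11 ± 0.13 at 3 days (adjusted p = 0.576, edgeR) and 0.07 ± 0.12 at 6 days (adjusted p = 0.679). In MetaICM it was −0.29 ± 0.11 against control (adjusted p = 0.0831) and −0.36 ± 0.08 against 6 days (adjusted p = 0.000545), below the size cutoff.

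AHRR, the repressor of the receptor, also passed the cutoffs in none of the 6 comparisons, and its order of conditions was nearly the reverse of that of CYP1B1. The gene is on chromosome 5 from 304291 to 438405. Its level was 96.3 and 86.1 CPM in control, 92.3 and 89.2 CPM after 3 days, 81.7 and 79.2 CPM after 6 days, and 102 and 99.99 CPM in MetaICM. MetaICM libraries were the highest and 6-day libraries the lowest. The log2FC was −0.01 ± 0.13 at 3 days (adjusted p = 0.963, edgeR; 0.067 and so of the other sign with library totals) and −0.19 ± 0.11 at 6 days (adjusted p = 0.212). MetaICM exceeded 6 days by 0.33 ± 0.07 (adjusted p = 0.000568), below the size cutoff.

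Among the targets that encode enzymes, CYP1B1 passed the cutoffs in all 6 comparisons. It lies on chromosome 2 from 38294746 to 38303323, minus strand. Its level was 75.0 and 65.2 CPM in control, 140 and 135 CPM after 3 days, 283 and 254 CPM after 6 days, and 18.7 and 16.7 CPM in MetaICM. No condition overlapped another. CYP1B1 rose by a log2FC of 0.97 ± 0.13 at 3 days (adjusted p = 0.000131, edgeR) and 1.93 ± 0.12 at 6 days (adjusted p = 9.55e-07), and by 0.96 ± 0.09 between these times (adjusted p = 3.65e-07).

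In MetaICM, CYP1B1 was 3.97-fold lower than in control (log2FC −1.99 ± 0.13, adjusted p = 2.40e-05, edgeR), 15.2-fold lower than after 6 days of ICM (−3.92 ± 0.09, adjusted p = 1.94e-18) and 7.76-fold lower than after 3 days (−2.96 ± 0.10, adjusted p = 2.42e-11). Between MetaICM and control it was the only one of the 6 genes tested that passed both cutoffs, while AHR passed the adjusted p alone. Every alternative and every left-out library kept these 6 calls.

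TIPARP, an ADP-ribosyltransferase that modifies AHR, reached its highest level earlier. The gene is on chromosome 3 from 156392379 to 156424557. Its level was 75.8 and 70.5 CPM in control, 177 and 185 CPM after 3 days, 159 and 164 CPM after 6 days, and 61.6 and 59.0 CPM in MetaICM. The 3-day libraries lay above the 6-day libraries, which lay above control and MetaICM. The log2FC over control was 1.30 ± 0.12 at 3 days (adjusted p = 8.50e-06, edgeR) and 1.14 ± 0.11 at 6 days (adjusted p = 2.12e-05), and the difference from 3 to 6 days was −0.16 ± 0.09 (adjusted p = 0.207).

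TIPARP was lower in MetaICM than after 6 days of ICM by −1.42 ± 0.07 (adjusted p = 6.56e-13, edgeR) and than after 3 days by −1.58 ± 0.08 (adjusted p = 2.21e-09). Its difference from control there was −0.28 ± 0.11 (adjusted p = 0.0805). TIPARP shares 673 of its 4356 exon bases with TIPARP-AS1 on the opposite strand. CYP1A1, the classical receptor target on chromosome 15 from 75011883 to 75017869, received 1 count over both control libraries, 2 after 3 days, 3 after 6 days and 3 in MetaICM. All are at or under the floor of 3 counts, so no difference was detectable at this depth.

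**Figure D2:**
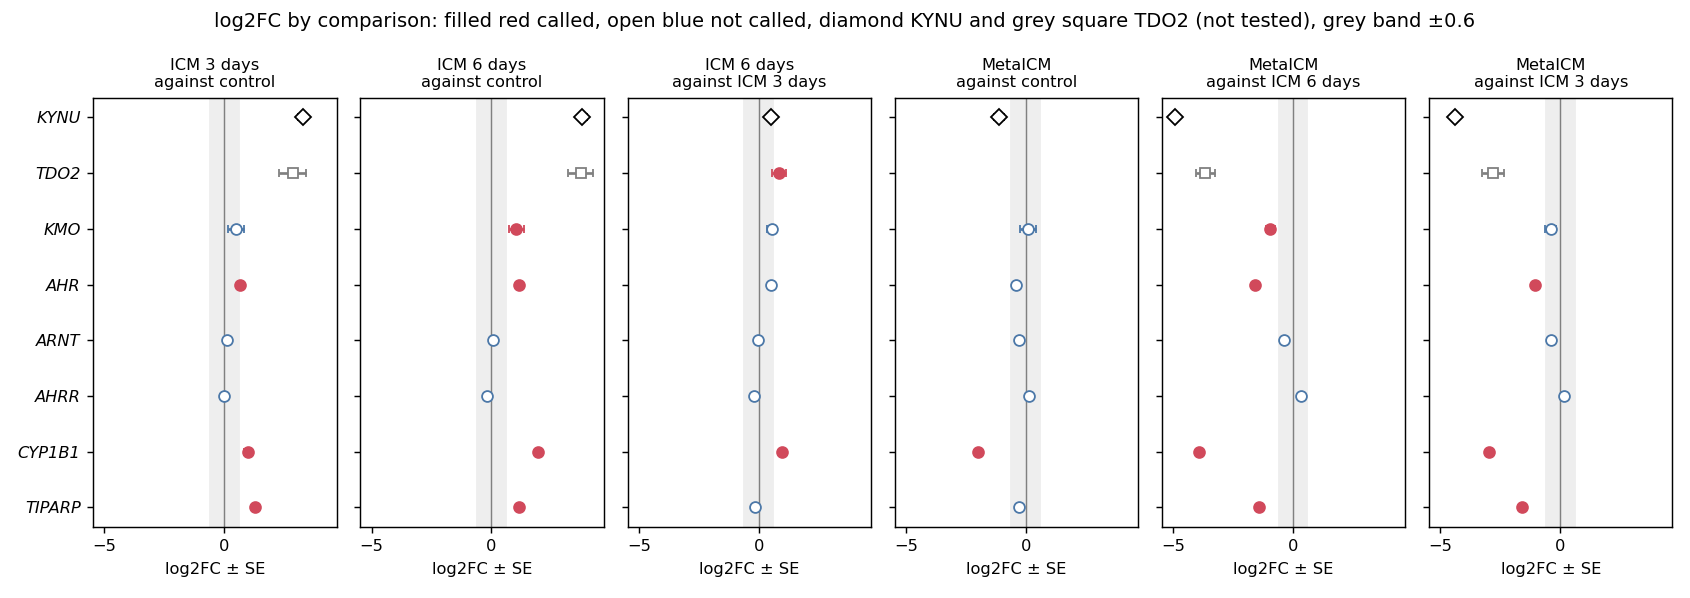
log2FC with SE bars (some smaller than the symbol) for KYNU and the 7 other genes with enough counts, 1 panel per comparison, with the first condition relative to the second. Filled circles passed adjusted p 0.05 and the 0.6 cutoff (grey band), open circles did not, grey squares are TDO2 where it passed the filter through the ICM libraries alone, and diamonds are KYNU, both not tested. CYP1B1 lies outside the band in every panel, from −3.92 to 1.93, while ARNT and AHRR lie inside it in every panel.

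Of the 9 genes other than KYNU, 6 had enough counts outside a single condition to be counted after 3 days of ICM, TDO2 left out, and 3 rose (AHR, CYP1B1 and TIPARP), while 8.85% of all genes tested rose and 13.2% fell. Scaling to library totals moved the higher calls among all called genes from 40.2% to 50.3% at this time. After 6 days KMO joined them, with 4 of 6 higher, against 13.3% of all genes higher and 17.2% lower. From 3 to 6 days, 2 of 7 were higher (TDO2 and CYP1B1), against 3.53% higher and 4.54% lower overall.

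For MetaICM against control, 1 of 6 was lower (CYP1B1), where 7.41% of all genes were higher and 8.99% lower. Against 6 days of ICM, 4 of 6 were lower (KMO, AHR, CYP1B1 and TIPARP), TDO2 again left out, where 15.7% of all genes were higher and 12.0% lower. Against 3 days, 3 of 6 were lower (AHR, CYP1B1 and TIPARP), where 13.1% were higher and 10.3% lower. The comparisons of ICM and MetaICM with control share the control libraries, and those of MetaICM share the MetaICM libraries.

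Levels of different genes were compared per exon length, as RPKM (CPM per kilobase of exon). Exon length covers all annotated exons of a gene, 16021 bases for KYNU, 6243 for AHR and 5017 for KMO. The order of genes and the size of each ratio rest on these lengths, whereas differences of a gene between conditions do not. In control, AHR had 21.6 ± 3.73 RPKM (SD, n = 2), TIPARP 16.8 ± 0.869, AHRR 16.1 ± 1.27, CYP1B1 13.6 ± 1.35 and ARNT 13.3 ± 0.862, and of these the neighbours from TIPARP to AHRR and from CYP1B1 to ARNT lay within their spread. KYNU had 1.30 ± 0.371 RPKM, KMO 0.665 ± 0.320, TDO2 0.157 ± 0.123 and IDO1 0.141 ± 0.0731. After 6 days of ICM the order was CYP1B1 at 52.1 ± 3.99 RPKM and AHR at 48.7 ± 2.56, within their spread of each other, then TIPARP at 37.1 ± 0.850 and KYNU at 18.2 ± 0.880, above AHRR at 14.2 ± 0.319 and ARNT at 14.0 ± 0.599.

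In MetaICM, CYP1B1 had 3.44 ± 0.274 RPKM, below ARNT at 10.9 ± 0.328, and KYNU had 0.606 ± 0.0438 RPKM, just below KMO at 0.689 ± 0.0443. In CPM, without the division by length, KYNU lay above KMO there, at means of 9.70 and 3.46. The KYNU to KMO ratio sets RNA of the cleaving enzyme against RNA of the hydroxylating enzyme. It was 1.16 and 3.55 in control, 13.8 and 13.9 at 3 days, 13.1 and 14.5 at 6 days, and 0.874 and 0.884 in MetaICM. KYNU was chosen by such a rise and fall, so this ratio is a description only. The CYP1B1 to AHR ratio was 0.60 to 0.67 in control, 0.774 to 0.796 after 3 days, 1.05 to 1.09 after 6 days and 0.202 to 0.220 in MetaICM. CYP1B1 so differed by more than AHR in both directions, which was not tested. The CYP1B1 to AHRR ratio went from a mean of 0.843 in control to 3.66 after 6 days and 0.192 in MetaICM.

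**Figure D3:**
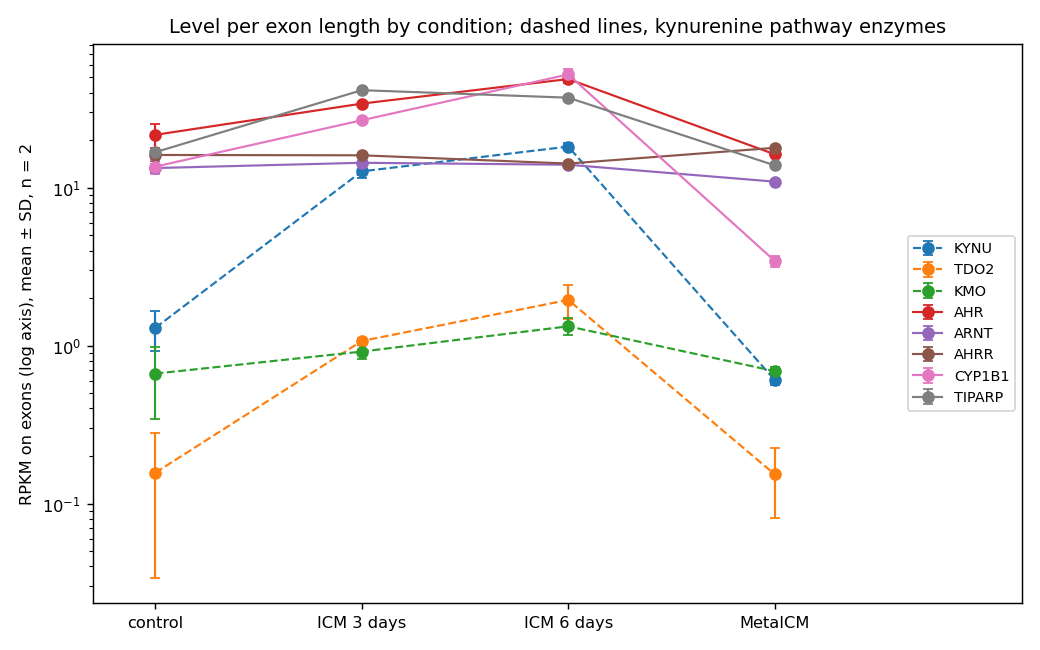
Level per exon length (RPKM, log axis) of 8 genes by condition, as the mean of 2 libraries with SD bars. Dashed lines are kynurenine enzymes, and solid lines are the receptor, its partner, its repressor and its targets. KYNU moves from 1.30 RPKM in control to 18.2 after 6 days of ICM and 0.606 in MetaICM, while ARNT stays between 10.9 and 14.4.

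Around these genes, 67 others were listed in 4 groups from general knowledge. Genes with a library under the count minimum of the filter in a comparison are left out of the counts and medians of these groups, a choice made after seeing the data, except where the number tested is given. Among the other reported AHR targets, 9 of 18 had enough counts at 6 days of ICM, and 6 rose (NQO1, ABCG2, SERPINB2, EREG, PTGS2 and STC2) while 2 fell (NEDD9 and CYP2S1), where 13.3% of all genes rose and 17.2% fell. With DESeq2 4 rose, since EREG and PTGS2 lost their calls, and the same 2 fell. Their median log2FC was 1.09, against −0.0013 for all genes. At 3 days, 5 of 9 rose with edgeR and 4 with DESeq2, PTGS2 being lost, against 8.85% of all genes. None of the 9 fell with edgeR or DESeq2, that is 0 calls (1 at an unadjusted p under 0.05), against 13.2%. The median was 0.98 against 0.0094 for all genes, and without 3-day replicate 1 only 3 rose. Several of these genes also answer to other factors, NQO1 to NRF2 among them. At both 3 and 6 days, ALDH3A1, CYP1A2, GSTA1, GSTA2, HES1, SCIN, UGT1A1, UGT1A6 and VAV3 had too few counts. The counts and medians of this group do not cover those genes.

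NQO1, a quinone reductase, had 291 and 246 CPM in control, 1427 and 1312 CPM after 3 days, 1676 and 1672 CPM after 6 days, and 298 and 310 CPM in MetaICM. The ICM libraries lay far above the others, and MetaICM lay just above control. Its log2FC was 2.35 ± 0.14 at 3 days (adjusted p = 1.77e-07, edgeR) and 2.64 ± 0.13 at 6 days (adjusted p = 1.86e-07), and 0.18 ± 0.12 for MetaICM against control (adjusted p = 0.287). SERPINB2, a protease inhibitor, had 19.9 and 9.27 CPM in control, 58.6 and 57.1 CPM after 3 days, 122 and 132 CPM after 6 days, and 6.53 and 8.08 CPM in MetaICM. Like KYNU, it had its lowest libraries in MetaICM and its highest after 6 days. Its log2FC was 3.10 ± 0.25 at 6 days (adjusted p = 6.53e-06, edgeR), or 3.77 without control replicate 2, and −4.11 ± 0.10 for MetaICM against 6 days (adjusted p = 4.52e-18).

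ABCG2, an efflux transporter, rose mainly late, with 5.83 and 5.80 CPM in control, 11.9 and 11.1 CPM after 3 days, 30.4 and 30.7 CPM after 6 days, and 6.48 and 7.73 CPM in MetaICM. Its log2FC was 2.39 ± 0.16 at 6 days over control (adjusted p = 1.18e-06, edgeR) and 1.40 ± 0.12 from 3 to 6 days (adjusted p = 1.73e-07). CYP2S1, a cytochrome of the same superfamily as CYP1B1, turned between the times. It had 4.16 and 4.31 CPM in control, 9.56 and 8.02 CPM after 3 days, and 2.31 and 1.97 CPM after 6 days. Of these, the 3-day libraries were the highest and the 6-day libraries the lowest, a difference of −2.05 ± 0.22 (adjusted p = 2.21e-06, edgeR).

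PTGS2, which makes prostaglandins, had 89.9 and 30.1 CPM in control, 129 and 111 CPM after 3 days, 135 and 112 CPM after 6 days, and 3.91 and 7.51 CPM in MetaICM. Its control libraries lay far apart. Its rise at 6 days of 1.03 (adjusted p = 0.0368, edgeR) was 0.46 without control replicate 2 and had an adjusted p of 0.264 with DESeq2, but MetaICM lay below control by −3.39 ± 0.45 (adjusted p = 0.00086), and by −2.38 without control replicate 1. In MetaICM against 6 days of ICM, 6 of 9 targets were lower (the same 6 that rose at 6 days, sharing the 6-day libraries) and 2 higher (NEDD9 and CYP2S1, the latter not with DESeq2), where 12.0% of all genes were lower and 15.7% higher, with a median of −2.10 against 0.0069 for all genes.

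MetaICM against control had 3 of 9 targets lower, against 8.99% of all genes, and 0 higher with edgeR or DESeq2 (2 at an unadjusted p under 0.05), against 7.41%. Among them EREG and SERPINB2 lost their calls without control replicate 1, and EREG also with DESeq2. MetaICM against 3 days had 6 of 9 lower and 1 higher (NEDD9), where 10.3% of all genes were lower and 13.1% higher, with a median of −1.07. From 3 to 6 days, 4 of 9 rose and 2 fell, against 3.53% and 4.54% of all genes, with a median of 0.29. HES1 was left out of both counts, with 7 counts after 6 days and 5 in MetaICM against 31 after 3 days. EREG, an EGF receptor ligand, was the largest riser there at 1.79 ± 0.15 (adjusted p = 5.93e-08, edgeR), from 6.67 and 6.88 to 25.1 and 21.7 CPM.

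In the rest of the tryptophan and kynurenine pathway, 12 of 18 genes could be counted at 6 days of ICM, of which 3 rose (AFMID, KYAT3 and QPRT) and 3 fell (SLC7A5, AADAT and WARS1), beside 13.3% of all genes higher and 17.2% lower. The median was 0.18 against −0.0013 for all genes. AFMID lost its call without either 6-day library, at a log2FC of 0.66 without replicate 1 and 0.76 without replicate 2. QPRT, which leads from the pathway into NAD, had 6.06 and 5.22 CPM in control, 9.15 and 9.51 CPM after 3 days, 11.0 and 11.8 CPM after 6 days, and 13.8 and 12.9 CPM in MetaICM. Unlike KYNU it was highest in MetaICM, where its log2FC over control was 1.23 ± 0.18 (adjusted p = 0.00137, edgeR).

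SLC7A5, the main carrier of tryptophan into cells, had 222 and 148 CPM in control, 69.9 and 54.1 CPM after 3 days, 59.8 and 54.9 CPM after 6 days, and 118 and 124 CPM in MetaICM. All ICM libraries lay below all others, with a log2FC of −1.58 ± 0.19 at 3 days (adjusted p = 5.94e-05, edgeR) and −1.69 ± 0.17 at 6 days (adjusted p = 2.97e-05). WARS1, which loads tryptophan onto its tRNA, fell at 3 days, by −1.45 ± 0.13 (adjusted p = 4.43e-06, edgeR). HAAO, the enzyme that acts on the product of KYNU and KMO, had 33 and 14 counts in control, 15 and 7 after 3 days, 13 and 7 after 6 days, and 20 and 27 in MetaICM. Control and MetaICM had both libraries over the count minimum of the filter, with 1 ICM library over it at each time. HAAO after ICM is therefore given with no test.

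SLC7A8, another amino acid carrier, had 1 and 1 counts in control, 18 and 15 after 6 days, and 0 and 5 in MetaICM, and passed the filter through the 6-day libraries alone. At 3 days, 2 of 12 genes of this group rose (AFMID and QPRT), with adjusted p of 0.0419 and 0.0258 (edgeR), and neither passed with DESeq2 or without either 3-day library or control replicate 2. Another 2 fell (SLC7A5 and WARS1), with a median of 0.14 over the 12, beside 8.85% of all genes higher and 13.2% lower. From 3 to 6 days, 0 of 15 passed with edgeR and 0 with DESeq2, and 2 were higher and 1 lower at an unadjusted p under 0.05.

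In MetaICM, 2 of 12 genes of this group were higher than in control (AFMID and QPRT) and 2 lower (SLC7A5 and AADAT), with a median of −0.072, beside 7.41% of all genes higher and 8.99% lower. Neither these lower calls nor the higher call of AFMID held when either MetaICM library was left out. Against 6 days, 2 of 11 were higher (SLC7A5 and WARS1) and 2 lower (SLC3A2 and KYAT3), with a median of 0.11, beside 15.7% and 12.0% of all genes. Without 6-day replicate 2 the lower calls went from 3 to 5 over all 15 genes tested. Against 3 days, 2 of 12 were higher (SLC7A5 and WARS1), beside 13.1% of all genes, with a median of 0.021. The lower calls were 0 with edgeR or DESeq2 (4 at an unadjusted p under 0.05), and 3 without 3-day replicate 1.

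Of 14 genes for NAD synthesis and use, 10 were tested at 6 days, of which 3 rose (NMNAT1, NADSYN1 and NT5E) and 3 fell (NNMT, PARP1 and SIRT1), with a median of −0.0099. Among all genes 13.3% rose and 17.2% fell at that time. The calls of NNMT, without control replicate 1 or 6-day replicate 1, and of NT5E, without control replicate 2, were lost. PARP1, which consumes NAD, had 161 and 119 CPM in control, 71.3 and 64.1 CPM after 3 days, 77.7 and 66.5 CPM after 6 days, and 163 and 161 CPM in MetaICM. It was lower in all ICM libraries, by −0.96 ± 0.15 at 6 days (adjusted p = 0.00061, edgeR). NAMPT, the rate-limiting enzyme that salvages nicotinamide, had 114 and 87.0 CPM in control, 132 and 124 CPM after 3 days, 109 and 101.2 CPM after 6 days, and 50.7 and 53.4 CPM in MetaICM. It was lower in MetaICM than in control by −0.95 ± 0.14 (adjusted p = 0.00138, edgeR).

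At 3 days, 1 of 10 NAD genes rose (NADSYN1) and 2 fell (NNMT and PARP1), with a median of 0.20, near the 8.85% and 13.2% of all genes. From 3 to 6 days 0 of 11 passed with edgeR or DESeq2 (2 higher and 2 lower at an unadjusted p under 0.05). Against control, MetaICM had 1 of 10 higher (NT5E) and 1 lower (NAMPT), with a median of 0.29, near the 7.41% and 8.99% of all genes. It had 2 of 10 higher and 1 lower against 6 days, with a median of 0.25, near 15.7% and 12.0%, and 3 of 10 higher and 1 lower against 3 days, with a median of −0.0061, beside 13.1% and 10.3%.

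Among 17 genes of the AHR complex and its bHLH-PAS relatives, all tested, 0 rose with ICM by edgeR or DESeq2, while 2 at 3 days and 4 at 6 days were higher at an unadjusted p under 0.05. At 3 days 5 fell (HSP90AA1, ARNT2, NPAS2, EPAS1 and RELB) and at 6 days 3 (ARNT2, EPAS1 and RELB), with medians of −0.055 and −0.078. Of all genes 13.2% fell at 3 days and 17.2% at 6 days, so that the share at 6 days was near that of all genes. Without 3-day replicate 1, 3 fell at 3 days, and the 6-day call of EPAS1 was lost without control replicate 1 or 6-day replicate 2. ARNT2, a relative of ARNT, had 46.8 and 44.5 CPM in control, 18.1 and 18.3 CPM after 3 days, 17.9 and 20.4 CPM after 6 days, and 38.5 and 40.1 CPM in MetaICM. Its log2FC was −1.26 ± 0.13 at 6 days (adjusted p = 4.23e-05, edgeR), whereas that of ARNT was 0.07. The difference between both genes was not tested.

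RELB, an NF-κB subunit that can pair with AHR, had 12.1 and 8.53 CPM in control, 5.84 and 5.73 CPM after 3 days, 3.54 and 3.51 CPM after 6 days, and 9.80 and 12.7 CPM in MetaICM. It fell by a log2FC of −1.56 ± 0.23 at 6 days (adjusted p = 0.000373, edgeR). It was also the only gene of the 17 to pass from 3 to 6 days, at −0.72 ± 0.21 (adjusted p = 0.022), beside 4.54% of all genes lower, a call lost with DESeq2 and without either 6-day library. In MetaICM, 1 gene was lower than in control (NCOA7, a coactivator, −0.80 ± 0.12, adjusted p = 0.00155, edgeR), beside 8.99% of all genes, and 0 higher with either tool (2 at an unadjusted p under 0.05), with a median of −0.21. Against both 6 and 3 days of ICM, ARNT2, EPAS1 and RELB were higher and HIF1A, NCOA3 and NCOA7 lower, with medians of −0.12 and −0.18, beside 15.7% of all genes higher and 12.0% lower against 6 days and 13.1% and 10.3% against 3 days.

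**Figure D4:**
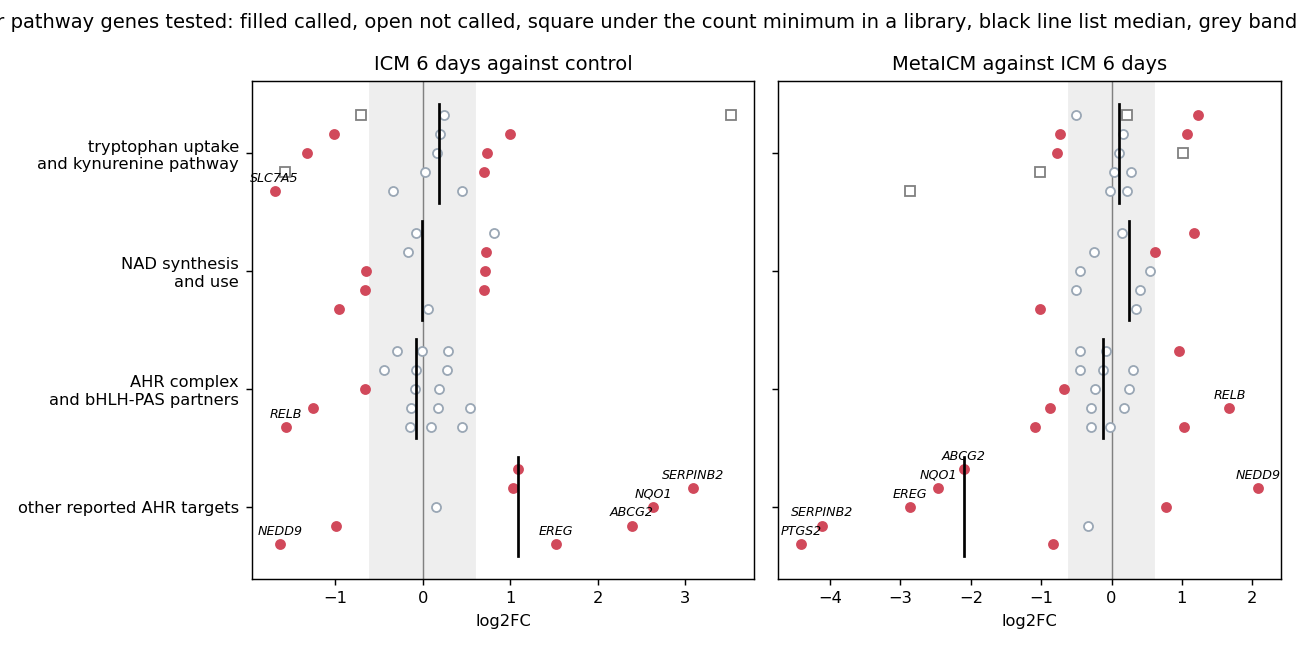
log2FC of every tested gene of the 4 groups after 6 days of ICM against control and in MetaICM against 6 days of ICM, with filled points for calls, open points for genes not called, grey squares for genes with a library under the count minimum of the filter, a black line at the median of the others and a grey band at ±0.6. Called genes beyond ±1.5 are named. The other AHR targets have medians of 1.09 and −2.10, and those of the other 3 groups lie between −0.12 and 0.25.

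The genes whose nascent RNA was most like that of KYNU were found by Pearson's r of log2 CPM over the 8 libraries, among 14467 genes with a mean of at least 1 CPM. They were NPC1 (r = 0.998), AKR1C1 (0.998), CARD6 (0.996), HACE1 (0.995), CABYR (0.993) and FBXO30 (0.993). The libraries come from 4 conditions and share their depth scaling, so r mainly follows the condition means, and 326 genes (2.25%) had r over 0.95. None of the 6 was among the first 6 by Spearman's rho, and 3 to 4 of them remained with a library left out.

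NPC1, which exports cholesterol from lysosomes, had 94.8 and 80.7 CPM in control, 208 and 204 CPM after 3 days, 223 and 221 CPM after 6 days, and 71.3 and 70.0 CPM in MetaICM. AKR1C1, a steroid and ketone reductase, had 109 and 58.0 CPM in control, 1106 and 1076 CPM after 3 days, 1289 and 1341 CPM after 6 days, and 36.5 and 38.1 CPM in MetaICM. It has close relatives in sequence, so its reads may be uncertain. AKR1C1 spanned 5.20 log2 units over the libraries and KYNU 5.02, whereas CARD6 spanned 1.22.

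Within the set itself, TIPARP had r = 0.985 to KYNU (rank 41 of 14467), AHR 0.970 (rank 139), CYP1B1 0.933 (rank 479) and TDO2 0.932 (rank 483). ARNT had 0.802 and KMO 0.715, and AHRR was the only one with a negative value, −0.754. By Spearman's rho the order differed, with AHR and CYP1B1 at 0.952, TDO2 at 0.833, and TIPARP and KMO at 0.81. ARNT had a rho of 0.762 and AHRR of −0.833. These values are set against the pattern by which KYNU was chosen, so they are a description.

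**Figure D5:**
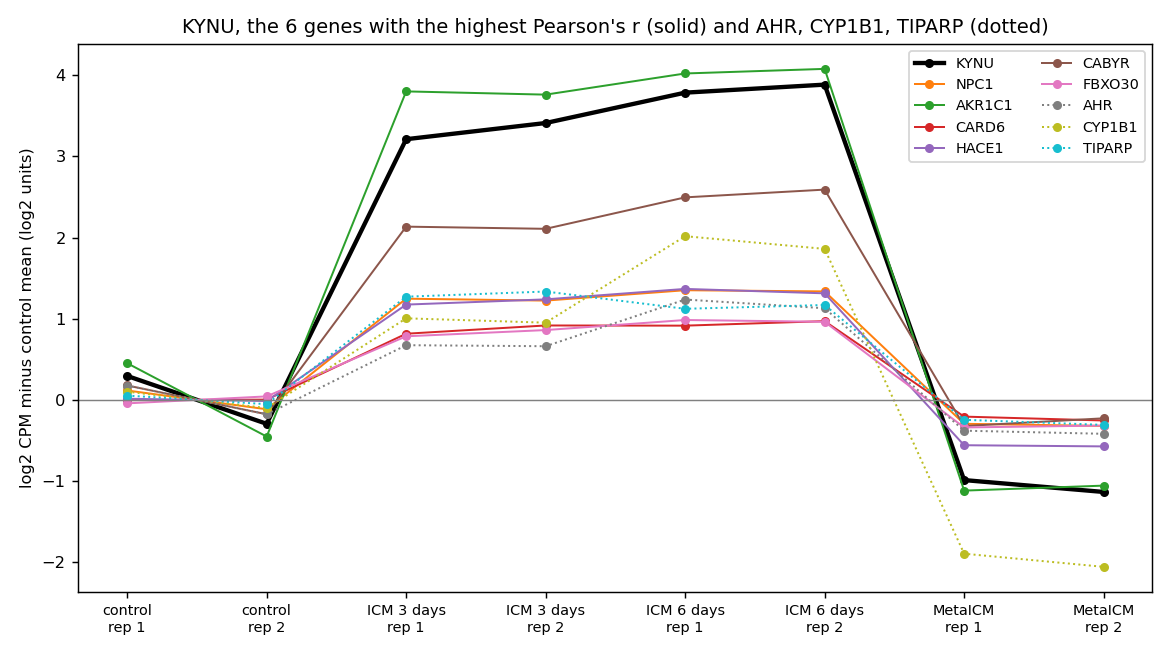
log2 CPM of each library minus the control mean, for KYNU (thick black), the 6 genes most like it (solid) and 3 members of the AHR branch (dotted). Lines join the libraries of 1 gene and carry no order in time. KYNU and AKR1C1 lie over 3 log2 units above control in every ICM library and about 1 below it in MetaICM, where CYP1B1 lies lowest.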

How the data were processed

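Nascent RNA from IMR90 was measured by factory RNA-Seq in 8 libraries, 2 for each of 4 conditions, grouped by their titles. Per the file headers, the authors counted paired reads over RefSeq exons of hg19 (GRCh37) with featureCounts (version 1.6.3), taking primary alignments with both ends mapped and no chimeric pairs, and deposited 1 count per gene and library. STAR (version 2.6.0c) is named in the submitters' processing notes. The counts were not normalized. No strand option was set, and whether multi-mapped pairs entered is not settled by the header. The study itself used intronic counts, which were not analysed here. The labels name poly(A) RNA.

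Each pair of conditions was fitted on its own 4 libraries with edgeR (version 4.0.16, R 4.3.3), using TMM factors, filterByExpr at a count minimum of 10, the quasi-likelihood test and Benjamini-Hochberg adjustment over all genes tested. A call needed an adjusted p below 0.05 and a log2FC beyond 0.6 in either direction. The SE is the log2FC divided by the root of the F statistic. CPM used TMM factors over all 8 libraries. Replicates differed by more than counting noise, so no library was counted as a duplicate. Tested on simulated data, the fits recovered changes of known size. The changes were placed only in genes with ample counts and drawn at a fixed spread. Genes with few counts and differences in spread between conditions were therefore not covered.

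The genes and lists were chosen with earlier results of these data known. All members were named; per list and comparison, up to 3 called genes of largest log2FC, without overlap and with at least 10 counts in each library of the higher condition, were eligible to be named with values, along with the 6 genes of highest r to KYNU. Others (STC2, NEDD9 and further called genes given without values) complete the counts and were named after their values were seen. Alternatives were DESeq2 (version 1.42.0), other scalings and filters, all 8 libraries in one fit, a replicate block, an adjusted p of 0.01 and each library left out. Replicate numbers did not pair the libraries. Tables and figures were made in Python 3.11.15 with pandas 2.3.3, numpy 2.4.6, matplotlib 3.10.9 and scipy 1.17.1. Promoter sequences are from RefSeq.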

Additional observations from a re-analysis of the deposited data

Results flagged for a closer look

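TDO2 and CYP1B1 differed between 3 and 6 days of ICM by the direct test of the later against the earlier time. For CYP1B1 the log2FC of 6 days over 3 days was 0.96 (adjusted p = 3.65e-07, edgeR), with both 6-day libraries above both 3-day libraries. For TDO2 it was 0.85 (adjusted p = 0.0433, edgeR), with both 6-day libraries higher, on 26 to 73 counts per library. The TDO2 call was lost with DESeq2, with library totals and with all 8 libraries in one fit, whereas CYP1B1 kept its call in each. Conditions of 2 libraries are too small to look for an outlying library.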

How the results depend on the processing

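For the 9 genes other than KYNU, 359 of 365 log2FC values under an alternative kept their direction and their side of the threshold, 5 fell short of it and 1 turned in sign. With a library left out, these numbers were 151 of 164, with 6 falling short, 2 newly passing and 5 turning. Only the 7 genes tested contribute to both tallies. The tallies include the TDO2 differences of ICM from control and MetaICM, which the filter fixed in advance and which all counted as kept. The calls from 3 to 6 days dropped from 2 to 1 with an adjusted p of 0.01, DESeq2, library totals or all 8 libraries in one fit, and were 1 to 2 with a library left out. The calls with a library left out were added after seeing the data and assume that the lone library varies like the other condition. Near 0, signs turned for AHRR at 3 days (0.067 with library totals, −0.11 to 0.076 with a library left out), ARNT at 6 days (−0.0058 to 0.14), ARNT from 3 to 6 days (−0.091 to 0.012) and KMO in MetaICM against control (−0.37 to 0.65). At least 10 counts in every library removed TDO2, except from 3 to 6 days. The list genes called at 3 days went from 18 to 11 without 3-day replicate 1, and in MetaICM against control from 11 to 5 with an adjusted p of 0.01 and to 6 without either MetaICM library.

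Replicate numbers in the labels are shared between conditions, but deviations of same-numbered libraries correlated only from −0.111 to 0.172, so they share only a number. With the replicate block, the calls among the 9 genes were 4 at 3 days, 5 at 6 days, 2 from 3 to 6 days, 1 in MetaICM against control, 5 against 6 days and 4 against 3 days, as without it. These counts include TDO2 in all but the comparison of MetaICM with control. The filter fixed its differences of ICM from control and MetaICM, so for TDO2 only the rise from 3 to 6 days is a test. Depth limits IDO1, CYP1A1 and TDO2.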
